A study of Zea mays with 45 samples.

Results

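The genes described here encode proteins that loosen the plant cell wall: the α-expansin expA4, the β-expansins expB4, expB6 and expB8, and xet1, a xyloglucan endotransglycosylase. They were found by symbol or synonym in the annotation of the Affymetrix maize array, which gave 9 probe sets of these 5 genes. The array names 1108 genes in all, through 1452 of its 17555 tested probe sets. The probe sets are Zm.13728.1.S1_at, Zm.13728.2.S1_a_at and Zm.13728.2.S1_at for expA4, Zm.672.1.A1_at for expB4, Zm.674.1.S1_at for expB6, Zm.13944.1.A1_at, Zm.13944.3.A1_at and Zm.13944.3.S1_a_at for expB8, and Zm.704.1.S1_at for xet1. The 3 probe sets of expA4 were designed on 2 source sequences and those of expB8 on 3, so probe sets of a gene are given apart. expA4 was matched by its symbol in the annotation, and the other genes by a synonym in the reference gene table.

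Expansins loosen the wall without cutting it: they let cellulose and the polymers bound to it slide when the cell's turgor pulls on an acidic wall. Grasses have a large family of β-expansins beside the α-expansins found across land plants. Xyloglucan endotransglycosylases cut xyloglucan, a polymer that coats cellulose, and join the cut end to another chain, and are read both as wall-loosening and as wall-building enzymes. In a grass leaf, cells divide at the base, elongate just above it and stop growing further up, so wall loosening is usually thought of as an activity of the elongating base.

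The study took maize of genotype SL (KWS Einbeck) with a 14 h light and 10 h dark cycle into an extended night: the plants stayed in their night conditions, which the study calls carbon starvation. Leaf tissue was taken from the division zone (0 to 1.5 cm above the ligule), the elongation zone (3 to 4.5 cm) and a mature zone, for which the labels give no distance. All plants shared this genotype and growth regime. The 15 groups were these 3 zones at 5 times: the day's end, called dusk here, the night's end, called dawn, and 6, 14 and 24 h of extended night. The 14 h arrays were set against dusk and the 24 h arrays against dawn, each at the same clock hour. The 6 h arrays were set against dawn, at another clock hour, so time of day and extended night cannot be told apart in that comparison. Each array held RNA of 5 pooled plants, so that each SD, SE and p-value reflects how pools, not plants, varied. There were 3 arrays per group, or 42 in all, except that the elongation and mature groups of dusk and the mature group of 6 h had 2 each.

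The deposited values are log2 signals, and a difference of 1 is a factor of 2 in signal. All 42 arrays correlated best with an array of their own group. Summed markers set mature tissue apart from the growing zones: over arrays, the log2 summed signal of 7 growing-tissue genes ran from 12.97 to 13.51 in division, 13.01 to 13.51 in elongation and 11.18 to 11.86 in mature tissue. That of 3 mesophyll genes ran from 8.02 to 8.98, 8.92 to 10.53 and 15.06 to 15.60. The growing-tissue sums did not part division from elongation, and not every single marker followed them. At dusk tub3 averaged 10.37, 10.30 and 10.96 and yab14 10.22, 4.91 and 5.09 in division, elongation and mature tissue. The median within-group SD of a probe set was 0.10, 0.11 and 0.19 along the same 3 zones, while the fit uses 1 spread for all groups. On the first principal component, replicate 3 of mature tissue at dawn scored 92.8 against 114.5 to 159.2 for the other mature arrays, and expB8, for which it stood apart, is given with and without it. A probe set is called dim where it lay, in every array of a group, at or under the 95th percentile of 66 reporter probe sets with no maize target, which was 6.19 over all arrays and between 5.98 and 6.82 in the groups. In whole-tissue RNA, fewer cells of a type and less RNA per cell cannot be told apart.

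**Figure D1:**
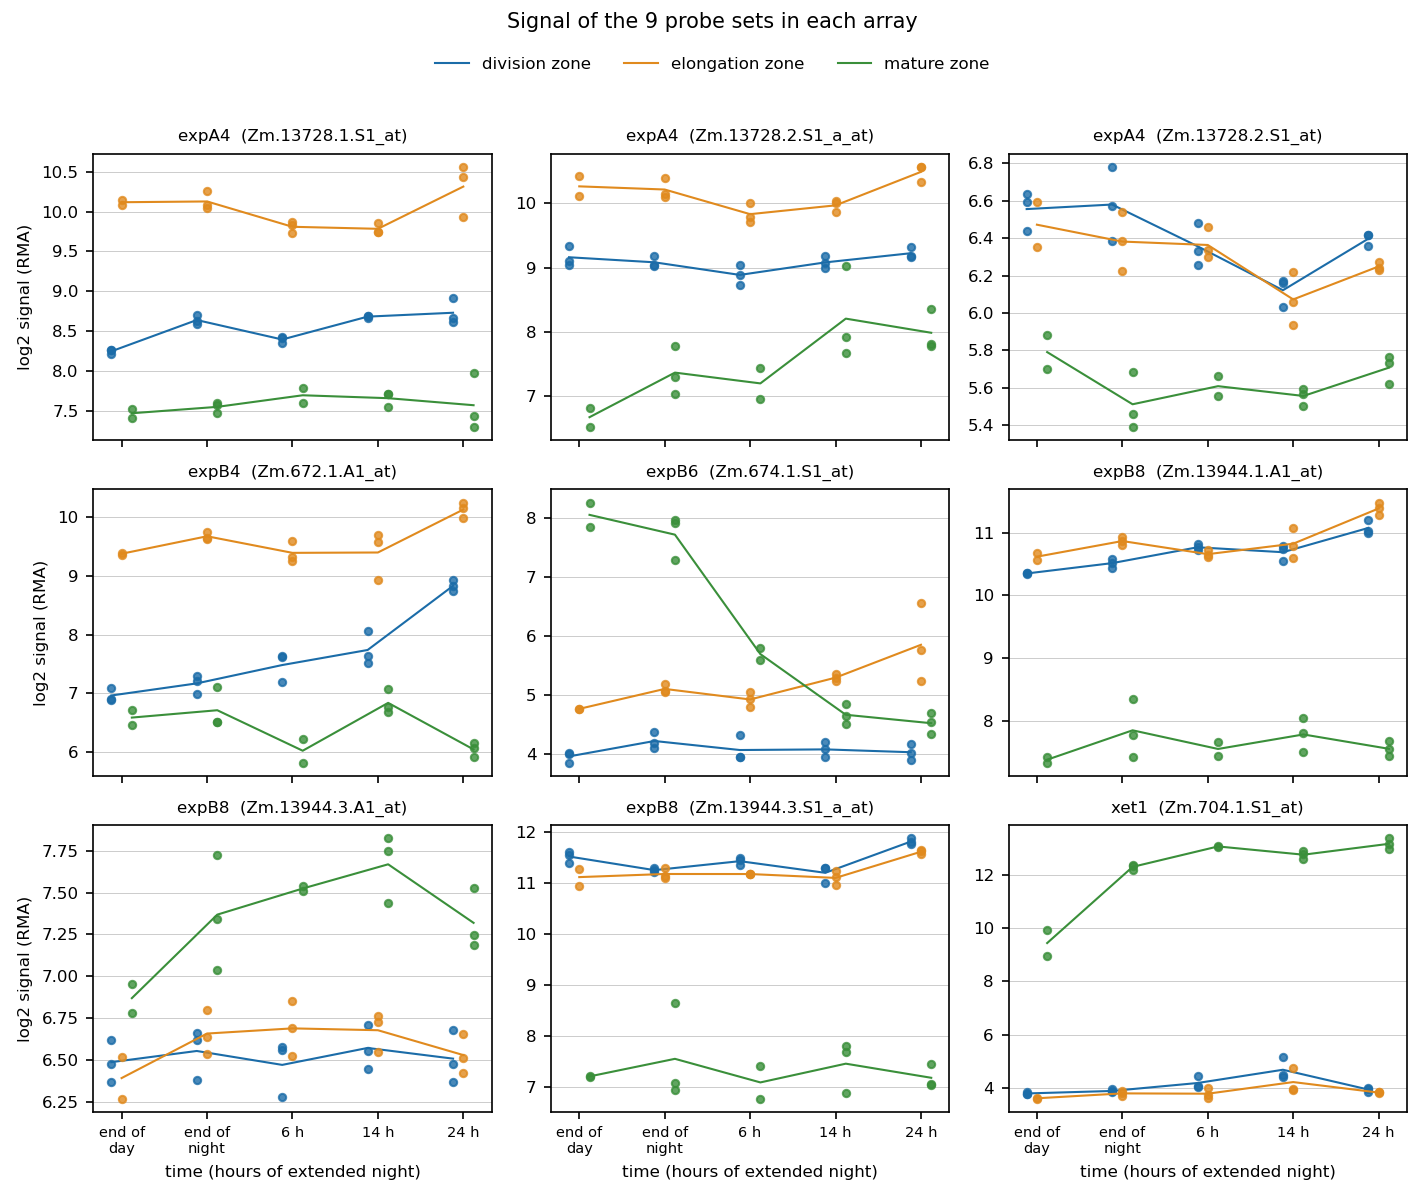
Log2 signal (RMA) of the 9 probe sets in each array (points) and group means (lines) against time, from dusk (end of day) and dawn (end of night) to 24 h of extended night, coloured by zone. Both bright expA4 probe sets and expB4 were highest in the elongation zone, expB6 and xet1 were highest in the mature zone at dusk, and in that zone expB6 was lower from 6 h of extended night on, while xet1 was higher at every later time than at dusk.

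The first question was how the wall-loosening genes were placed along the leaf. From the elongation to the mature zone, expA4, expB4 and the 2 bright expB8 probe sets fell and xet1 rose by far at each time tested, and expB6 was higher in the mature zone at dusk and at dawn but not after 24 h of extended night, when it was dim there and near the dim level in the elongation zone. With limma and a Benjamini-Hochberg adjusted p under 0.05, mature tissue had 3 of the 9 probe sets higher and 6 lower than elongating tissue at dusk, where 36.1% and 35.9% of all probe sets were higher and lower. At dawn 3 were higher and 6 lower (38.7% and 37.6% of all probe sets), and at 24 h 2 were higher and 7 lower (46.5% and 33.7%). The median difference of the 9 was -2.65, -2.58 and -2.51 at these times, beside 0.07, 0.06 and 0.18 over all probe sets. In the elongation against the division zone 4 were higher and 0 lower at dusk (17.9% and 21% of all probe sets), 5 and 0 at dawn (19.8% and 22.5%) and 4 and 0 at 24 h (21.3% and 22%). The medians were 0.27, 0.35 and 0.31, beside -0.06, -0.05 and -0.01 over all probe sets. Calls this common make the counts themselves no mark of the wall-loosening genes, and the sizes and directions below carry the description. The 2 groups did not overlap for 9 of 9 probe sets between the mature and elongation zones at each of the 3 times (85.8%, 74.2% and 81.1% of all probe sets), and for 7, 5 and 7 between the elongation and division zones (66.3%, 58.2% and 53.6%).

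**Figure D2:**
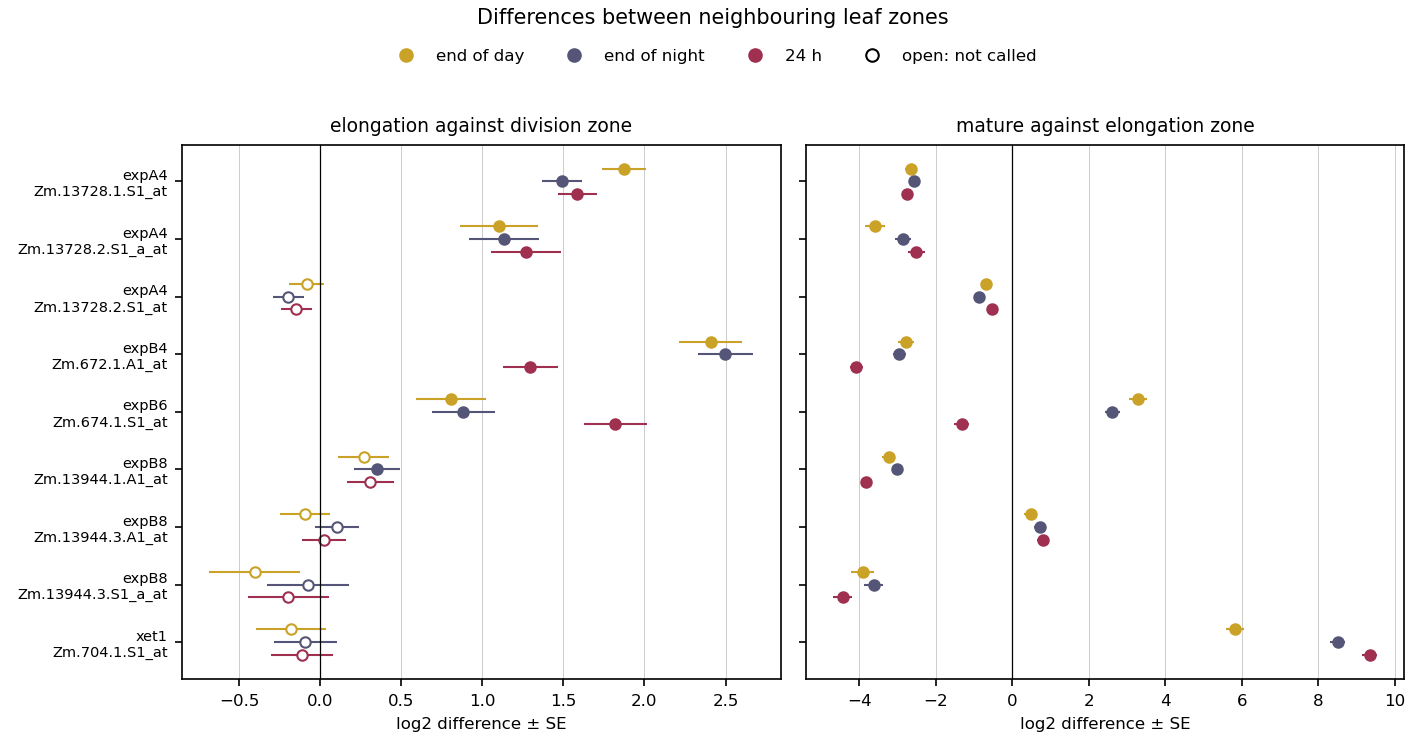
Log2 difference with its SE (limma) of each probe set for the elongation minus the division zone (left) and the mature minus the elongation zone (right) at dusk, dawn and 24 h; filled points have an adjusted p under 0.05. expB4 stood 2.41 and 2.50 higher in the elongation than in the division zone before the extended night and 1.30 higher at 24 h, and the excess of expB6 in the mature over the elongation zone at dusk and dawn was gone at 24 h, when its mature-zone signal was dim.

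The α-expansin expA4 was an elongation-zone gene in its 2 bright probe sets. From dusk to 24 h, the division-zone means of Zm.13728.1.S1_at were 8.24 ± 0.03, 8.64 ± 0.05, 8.39 ± 0.04, 8.68 ± 0.02 and 8.73 ± 0.16 (SD, n = 3 each). Its elongation-zone means were 10.12 ± 0.04 (n = 2), 10.13 ± 0.11, 9.81 ± 0.07, 9.78 ± 0.06 and 10.32 ± 0.33 (n = 3). Its mature-zone means were 7.47 ± 0.08 (n = 2), 7.55 ± 0.06 (n = 3), 7.69 ± 0.13 (n = 2), 7.65 ± 0.09 and 7.57 ± 0.35 (n = 3). All 14 elongation-zone arrays lay above all 15 division-zone arrays, and these above all 13 mature-zone arrays. In the order of the 15 means, 5 of the 14 neighbouring steps separated groups that did not overlap, among them the steps between zones. The 5 mature-zone groups followed each other with overlap. At dusk the elongation zone stood 1.87 ± 0.14 above the division zone, a factor of 3.67 (limma adjusted p = 1.5e-12). The mature zone was 6.29-fold below the elongation zone (limma difference -2.65 ± 0.15, adjusted p = 2.2e-16).

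Zm.13728.2.S1_a_at of expA4 had the same order of zones. In time order its means were 9.16 ± 0.16, 9.08 ± 0.08, 8.88 ± 0.16, 9.08 ± 0.09 and 9.22 ± 0.08 in the division zone. The elongation zone had 10.26 ± 0.22 (n = 2), 10.22 ± 0.16, 9.83 ± 0.15, 9.97 ± 0.09 and 10.49 ± 0.14, and the mature zone 6.67 ± 0.21 (n = 2), 7.36 ± 0.38, 7.19 ± 0.35 (n = 2), 8.20 ± 0.73 and 7.98 ± 0.32. Arrays of the mature zone spread the most, and 1 of them, with 9.03 at 14 h, reached into the division-zone range of 8.73 to 9.34. The limma differences of the elongation against the division zone were 1.10 ± 0.24, 1.13 ± 0.21 and 1.27 ± 0.21 at dusk, dawn and 24 h, and those of the mature against the elongation zone -3.60 ± 0.26, -2.85 ± 0.21 and -2.51 ± 0.21. The step down to the mature zone was smaller at the later times, when the mature-zone mean was higher. Over the 15 group means its correlation with Zm.13728.1.S1_at was 0.93, and within zones it was 0.30 over the 5 division-zone means, 0.97 over the elongation-zone means and 0.50 over the mature-zone means.

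The third expA4 probe set, Zm.13728.2.S1_at, did not share the peak. It ran from 6.03 to 6.78 over the division-zone arrays, from 5.94 to 6.59 in the elongation zone and from 5.39 to 5.88 in the mature zone, where it was dim in all 5 groups. No difference between the elongation and division zones was called (limma differences of -0.08, -0.20 and -0.15, adjusted p = 0.60, 0.10 and 0.24). The mature zone was lower at each of the 3 times, with means of 5.79, 5.51 and 5.71 against 6.47, 6.38 and 6.25 in the elongation zone (limma adjusted p = 6.1e-06, 1.1e-09 and 8.0e-06); the dim level allows "at least 1.20-fold lower" at dusk and no fold at the other times.

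Over the night and the extended night, the bright expA4 probe sets went different ways in different zones. In the division zone Zm.13728.1.S1_at had 8.69, 8.66 and 8.69 at 14 h, against 8.27, 8.26 and 8.21 at dusk. The groups did not overlap, and this probe set rose by 0.44 ± 0.12 (limma adjusted p = 0.0040). In the elongation zone the same probe set had 9.75, 9.75 and 9.86 at 14 h, against 10.15 and 10.09 at dusk, a fall of 0.33 (limma difference -0.33 ± 0.14, adjusted p = 0.047). This call did not hold when any 1 of its 5 arrays was left out (adjusted p from 0.0505 to 0.195) or in a fit of the elongation zone alone (0.057). The 2 changes differed from each other by -0.77 ± 0.18 (limma interaction, adjusted p = 0.0081), and at 0.051 without replicate 1 of the elongation zone at dusk. Over the normal night the probe set rose in the division zone, with 8.70, 8.63 and 8.59 at dawn against 8.27, 8.26 and 8.21 at dusk (limma difference 0.39 ± 0.12, adjusted p = 0.049); without any 1 of the 6 arrays the adjusted p was between 0.091 and 0.15. At 24 h it was not called in any zone (differences of 0.09, 0.19 and 0.02 against dawn, limma adjusted p = 0.60, 0.24 and 0.90). In the elongation zone 1 array decided this: without replicate 2 at 24 h the difference was 0.38 and called (adjusted p = 0.011), as it was with array weights (0.31, adjusted p = 0.0031).

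In the mature zone it was Zm.13728.2.S1_a_at of expA4 that moved. At 14 h its 3 arrays had 7.67, 9.03 and 7.91, against 6.52 and 6.82 at dusk. The groups did not overlap, though replicate 2 at 14 h was more than 1 above the other two, and the difference was 1.54 ± 0.24, a factor of 2.90 (limma adjusted p = 1.5e-06, and 0.0051 in a fit of the mature zone alone). The change in the mature zone exceeded that in the elongation zone by 1.83 ± 0.34 (limma interaction, adjusted p = 4.5e-05). Over the normal night it rose by 0.69 ± 0.24, with 7.78, 7.02 and 7.29 at dawn against 6.52 and 6.82 at dusk (limma adjusted p = 0.020). This was not called in the mature zone alone (0.22), without replicate 1 at dusk (0.18) or without replicate 1 at dawn (0.13, with a difference of 0.49). At 24 h it had 8.36, 7.78 and 7.81, against 7.78, 7.02 and 7.29 at dawn (limma difference 0.62 ± 0.21, adjusted p = 0.014). That call was lost in the mature zone alone (0.16), without replicate 1 at 24 h (0.12) and without replicate 2 at dawn (0.099).

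Zm.13728.2.S1_at of expA4 moved against Zm.13728.1.S1_at in the division zone at 14 h, with 6.03, 6.17 and 6.16 against 6.59, 6.44 and 6.64 at dusk. It fell by 0.43 there (limma difference -0.43 ± 0.10, adjusted p = 0.00038), without overlap of the groups. In the elongation zone it had 6.06, 6.22 and 5.94 at 14 h, against 6.35 and 6.59 at dusk (limma difference -0.40 ± 0.11, adjusted p = 0.0026; 0.10 without replicate 2 at dusk). In the mature zone over the normal night its means were 5.51 and 5.79, both dim (limma adjusted p = 0.038), and the call was lost in 7 of 11 alternatives. Zm.13728.2.S1_a_at did not share the division-zone rise of Zm.13728.1.S1_at. Its division-zone means were 9.08 ± 0.09 at 14 h and 9.16 ± 0.16 at dusk, with overlap. Over the normal night its difference there was -0.08 (limma adjusted p = 0.92). A direction for expA4 as a whole in the division zone at 14 h can thus not be read from the array.

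The β-expansin expB4 peaked in the elongation zone and, during the extended night, rose in the division zone and was lower in the mature zone at 6 and 24 h. Zm.672.1.A1_at averaged 6.97 ± 0.12, 7.17 ± 0.16, 7.48 ± 0.25, 7.74 ± 0.28 and 8.83 ± 0.10 in the division zone from dusk to 24 h (SD, n = 3 each). Its elongation-zone means were 9.37 ± 0.02 (n = 2), 9.67 ± 0.06, 9.39 ± 0.18, 9.40 ± 0.42 and 10.12 ± 0.13. Those of the mature zone were 6.59 ± 0.18 (n = 2), 6.72 ± 0.34, 6.03 ± 0.29 (n = 2), 6.84 ± 0.20 and 6.05 ± 0.12. The elongation zone was above both other zones at every time, and the division zone at 24 h stood above all its other groups and all mature-zone groups. In the order of the 15 means the elongation zone at 24 h was set off from the next group, and the division zone at 24 h from both its neighbours, although its highest array (8.93) passed the lowest elongation-zone array of 14 h (8.92). The division groups from dusk to 14 h each overlapped the next in line.

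At 24 h expB4 had 8.74, 8.82 and 8.93 in the division zone, against 6.99, 7.22 and 7.30 at dawn. It rose by 1.66 ± 0.17, a factor of 3.15 (limma adjusted p = 5.7e-09), and every alternative kept this call with differences from 1.57 to 1.76. The elongation zone had 10.24, 9.98 and 10.15 at 24 h, against 9.74, 9.63 and 9.64 at dawn, a difference of 0.45 ± 0.17 without overlap (limma adjusted p = 0.033). That smaller change was lost in 6 of 13 alternatives, among them 4 that left out 1 array (replicate 2 or 3 of dawn, 1 or 3 of 24 h), with adjusted p up to 0.11. The change in the elongation zone was smaller than that in the division zone by 1.20 (limma interaction -1.20 ± 0.24, adjusted p = 0.0040; 0.0014 with arrays paired by replicate number). The step from the division to the elongation zone, 2.50 ± 0.17 at dawn, was 1.30 ± 0.17 at 24 h (limma adjusted p = 2.1e-13 and 1.9e-07).

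At the earlier times of the extended night expB4 was less far along in the division zone. At 6 h it had 7.19, 7.62 and 7.63, against 6.99, 7.22 and 7.30 at dawn, with overlap and no call (limma difference 0.31 ± 0.17, adjusted p = 0.45). At 14 h it had 7.64, 7.51 and 8.06, against 6.91, 7.10 and 6.89 at dusk, and rose by 0.77 ± 0.17 (limma adjusted p = 0.00038). The elongation zone at 14 h overlapped its dusk arrays (limma difference 0.02 ± 0.19, adjusted p = 0.95), and the 2 changes at 14 h were not called different (-0.75 ± 0.26, adjusted p = 0.078).

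In the mature zone expB4 was lower at 6 and 24 h but not at 14 h. At 6 h it had 5.82 and 6.23, against 7.11, 6.51 and 6.52 at dawn (limma difference -0.69 ± 0.19, adjusted p = 0.0045). It was dim at 6 h, and the dim level allows no fold; the difference was -0.48 with an adjusted p of 0.12 without replicate 1 at 6 h, and the call was also lost with array weights (0.055). At 14 h it had 6.68, 6.77 and 7.07, against 6.47 and 6.72 at dusk, with overlap and no call (limma difference 0.25 ± 0.19, adjusted p = 0.27), and its mean of 6.84 was the highest of the 5 mature-zone groups. At 24 h it had 6.08, 5.92 and 6.15, against 7.11, 6.51 and 6.52 at dawn, a fall without overlap (means of 6.05 and 6.72, limma adjusted p = 0.0012). It was dim at 24 h, where the dim level was 6.47. The dawn mean lay close to its own dim level of 6.67, so no fold is given. As measured, with this dim group in it, the change of expB4 in the mature zone was below that of the elongation zone by 1.12 (limma interaction -1.12 ± 0.24, adjusted p = 0.00025). The difference between these zones reached at least 12.6-fold at 24 h, with means of 6.05 in the mature zone and 10.12 in the elongation zone (limma adjusted p = 6.3e-20). At dawn it was a factor of 7.76 (means of 6.72 and 9.67, limma difference -2.96 ± 0.17, adjusted p = 2.3e-16).

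expB6, another β-expansin, was at its highest in mature tissue at dusk and fell there within 6 h of extended night. Mature-zone arrays of Zm.674.1.S1_at had 7.85 and 8.26 at dusk, and 7.91, 7.96 and 7.29 at dawn. It had 5.80 and 5.60 at 6 h, 4.51, 4.65 and 4.86 at 14 h, and 4.34, 4.55 and 4.69 at 24 h. The first 2 groups overlapped each other, as did the last 2, and the 6 h arrays stood between them without touching either. From 6 h on the gene was dim in the mature zone.

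At 6 h expB6 fell at least 1.86-fold in the mature zone, with means of 5.70 at 6 h and 7.72 at dawn (limma adjusted p = 5.5e-09). At 14 h it was at least 2.46-fold lower, with means of 4.67 and, at dusk, 8.05 (limma adjusted p = 7.6e-15). At 24 h it was at least 2.37-fold lower, with means of 4.53 and, at dawn, 7.72 (limma adjusted p = 1.6e-15). These bounds are set by the dim level, and the measured differences were -2.02 ± 0.22, -3.38 ± 0.22 and -3.19 ± 0.19. All 3 calls held in each alternative that was run, with differences from -2.33 to -1.90 at 6 h and from -3.74 to -3.18 at 14 h. Over the normal night the change was not called (limma difference -0.34 ± 0.22, adjusted p = 0.23).

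expB6 was dim or nearly so in the growing zones. It ran from 3.86 to 4.39 over the division-zone arrays. Its elongation-zone means were 4.77 ± 0.01 (n = 2), 5.11 ± 0.07, 4.93 ± 0.13, 5.30 ± 0.06 and 5.86 ± 0.67. The elongation zone had 6.56, 5.24 and 5.77 at 24 h, against 5.19, 5.06 and 5.07 at dawn, with replicate 1 at 24 h above the other two. The difference of 0.75 ± 0.19 was called (limma adjusted p = 0.0020), and was 0.39 with an adjusted p of 0.061 without that replicate. The elongation zone was called above the division zone at dusk (means of 4.77 and 3.97, limma adjusted p = 0.0032), at dawn (5.11 and 4.23, adjusted p = 0.00035) and at 24 h (5.86 and 4.04, adjusted p = 2.8e-09). No fold is given, since the division zone was always dim. The elongation-zone means at 14 h and at dusk, 5.30 and 4.77, differed with a limma adjusted p of 0.046, and of 0.063 to 0.15 with any 1 array left out.

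The excess of expB6 in the mature over the elongation zone was seen at dusk and dawn and not at 24 h. At dusk the mature zone was at least 4.20-fold above the elongation zone (means of 8.05 and 4.77, limma adjusted p = 8.9e-14), and at dawn at least 2.88-fold (7.72 and 5.11, adjusted p = 9.9e-14). At 24 h the mature zone had 4.34, 4.55 and 4.69, against 6.56, 5.24 and 5.77 in the elongation zone, without overlap (limma difference -1.33 ± 0.19, adjusted p = 2.8e-07). Since the mature zone was dim and only 1 of the 3 elongation-zone arrays, with 6.56, was above the dim level, no order of the zones and no fold is given for 24 h. The measured change in the mature zone was below that in the elongation zone at 24 h (limma interaction -3.94 ± 0.27, adjusted p = 1.8e-13) and at 14 h (-3.91 ± 0.31, adjusted p = 6.5e-12). Both values include dim groups of either zone, so no size is read from them.

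expB8 was read by 3 probe sets, and 2 of them gave a β-expansin of growing tissue. In time order, Zm.13944.3.S1_a_at averaged 11.52 ± 0.11, 11.25 ± 0.05, 11.43 ± 0.06, 11.20 ± 0.17 and 11.81 ± 0.06 in the division zone. It averaged 11.12 ± 0.23 (n = 2), 11.18 ± 0.11, 11.18 ± 0.01, 11.10 ± 0.14 and 11.62 ± 0.04 in the elongation zone and 7.21 ± 0.02 (n = 2), 7.55 ± 0.94, 7.09 ± 0.45 (n = 2), 7.46 ± 0.51 and 7.18 ± 0.24 in the mature zone. Growing and mature tissue lay far apart at every time. Zm.13944.1.A1_at averaged 10.35 ± 0.01, 10.51 ± 0.07, 10.77 ± 0.05, 10.69 ± 0.13 and 11.08 ± 0.11 in the division zone. It averaged 10.62 ± 0.07 (n = 2), 10.87 ± 0.06, 10.66 ± 0.06, 10.82 ± 0.24 and 11.38 ± 0.10 in the elongation zone and 7.38 ± 0.07 (n = 2), 7.85 ± 0.46, 7.56 ± 0.16 (n = 2), 7.79 ± 0.27 and 7.56 ± 0.12 in the mature zone. Both probe sets put the division and elongation zones close together and far above the mature zone, unlike expA4 and expB4, which had a step between the first 2 zones. Their correlation over the 15 group means was 0.99.

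The limma differences of the mature against the elongation zone were -3.91 ± 0.31, -3.63 ± 0.25 and -4.44 ± 0.25 for Zm.13944.3.S1_a_at at dusk, dawn and 24 h, or factors of 15, 12.4 and 21.7. For Zm.13944.1.A1_at they were -3.23 ± 0.17, -3.01 ± 0.14 and -3.83 ± 0.14. The dawn differences include mature-zone replicate 3, with 8.64 against 6.93 and 7.08 for Zm.13944.3.S1_a_at and 8.35 against 7.43 and 7.78 for Zm.13944.1.A1_at. At dusk the mature zone had 7.22 and 7.19 for Zm.13944.3.S1_a_at and 7.34 and 7.43 for Zm.13944.1.A1_at. The dawn differences without replicate 3 are not given, so no change of the zone step between dusk and dawn is read from them. Between the elongation and division zones Zm.13944.1.A1_at had 10.87, 10.80 and 10.93 against 10.52, 10.44 and 10.59 at dawn, a difference of 0.35 ± 0.14 without overlap (limma adjusted p = 0.046). Leaving out any 1 of these 6 arrays gave adjusted p from 0.057 to 0.13, and pairing the arrays by replicate number gave 0.0044. At 24 h the paired fit also called a difference that the unpaired fit did not, of 0.31 for Zm.13944.1.A1_at (adjusted p = 0.0086 paired and 0.081 unpaired), and one of -0.20 for Zm.13944.3.S1_a_at (0.036 paired and 0.59 unpaired). At dusk the differences were 0.27 ± 0.16 for Zm.13944.1.A1_at and -0.40 ± 0.28 for Zm.13944.3.S1_a_at, not called (limma adjusted p = 0.20 and 0.28) but called when only the 2 groups were fitted (0.015 and 0.017). The 2 bright expB8 probe sets had opposite signs between these zones at each of the 3 times.

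During the extended night the 2 bright expB8 probe sets were highest at 24 h in both growing zones. In the division zone Zm.13944.1.A1_at had 10.99, 11.20 and 11.03 at 24 h, against 10.52, 10.44 and 10.59 at dawn, and rose by 0.56 ± 0.14 (limma adjusted p = 0.0026). Elongation-zone arrays had 11.48, 11.28 and 11.40 at 24 h, against 10.87, 10.80 and 10.93 at dawn, a rise of 0.52 ± 0.14 (limma adjusted p = 0.0034). Neither pair of groups overlapped, and both calls held in each alternative run. Zm.13944.3.S1_a_at had 11.76, 11.88 and 11.80 in the division zone at 24 h, against 11.25, 11.21 and 11.31 at dawn. Its groups did not overlap either, and its difference of 0.56 ± 0.25 was as large, but was not called (limma adjusted p = 0.084). Its elongation-zone difference was 0.44 ± 0.25 (limma adjusted p = 0.17). The within-group SD of this probe set was 0.099 in the division, 0.12 in the elongation and 0.57 in the mature zone, and fits of the division or the elongation zone alone called both (limma adjusted p = 6.3e-05 and 0.0011).

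The 2 bright expB8 probe sets were low in the mature zone, and their largest values there came from 1 array. At dawn Zm.13944.3.S1_a_at had 6.93, 7.08 and 8.64 and Zm.13944.1.A1_at 7.43, 7.78 and 8.35, with replicate 3 the highest of both. In that replicate 6 of 7 genes of growing tissue were also above the other two arrays, among them the cyclin cyc3 with 8.01 against 5.80 and 6.03 and the replication factor pcna1 with 9.68 against 7.03 and 7.52, while the summed signal of the 7 was 11.86 against 11.39 and 11.18. The part of growing cells in the expB8 values of this array was not tested. Zm.13944.1.A1_at was called higher at dawn than at dusk, when it had 7.34 and 7.43 (limma difference 0.47 ± 0.16, adjusted p = 0.018). Without replicate 3 the difference was 0.22 (adjusted p = 0.20), and the call was also lost without dusk replicate 1 (0.12) or 2 (0.052), with array weights (0.18) and in the mature zone alone (0.19). The change of this probe set at 24 h against dawn was -0.29 ± 0.14 in the mature zone, below that in the elongation zone by 0.81 (limma interaction -0.81 ± 0.20, adjusted p = 0.0011). Without replicate 3 of dawn the mature-zone change was -0.05 and the interaction -0.57, which was still called. At 14 h it had 7.50, 7.81 and 8.05, against 7.34 and 7.43 at dusk (limma difference 0.40 ± 0.16, adjusted p = 0.029; 0.19 in the mature zone alone, and from 0.059 to 0.16 without either dusk array or replicate 2 or 3 of 14 h).

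The third expB8 probe set, Zm.13944.3.A1_at, ran the other way along the leaf. It averaged between 6.47 and 6.57 over the 5 division-zone groups, between 6.39 and 6.69 in the elongation zone, and 6.87 ± 0.12 (n = 2), 7.37 ± 0.34, 7.52 ± 0.02 (n = 2), 7.67 ± 0.20 and 7.32 ± 0.18 in the mature zone. In the order of its 15 means the 1 step without overlap lay between the 4 later mature-zone groups and all others. The mature zone was above the elongation zone by 0.48 ± 0.17, 0.71 ± 0.14 and 0.79 ± 0.14 (limma adjusted p = 0.012, 2.3e-05 and 4.8e-06), of which the first was lost without replicate 2 of either zone at dusk (0.13 and 0.095). Mature-zone arrays had 7.82, 7.75 and 7.44 at 14 h, against 6.78 and 6.96 at dusk, a rise of 0.80 ± 0.15 without overlap (limma adjusted p = 3.3e-05). The dim level of the mature-zone groups also moved, with 6.21, 6.67, 6.82, 6.75 and 6.47 from dusk to 24 h. How far changes of this weak probe set follow that background was not tested. Over the normal night it rose by 0.50 ± 0.15 (limma adjusted p = 0.0089, with 0.089 in the mature zone alone, 0.11 without replicate 1 at dusk and 0.093 without replicate 2 at dawn). Its correlation with the 2 bright probe sets over the group means was -0.88 and -0.90, so the 3 probe sets give no common pattern for expB8.

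xet1 was a mature-zone gene, opposite in placement to expA4 and expB4. Zm.704.1.S1_at ran from 3.77 to 5.15 in the division zone and from 3.60 to 4.76 in the elongation zone, dim in all 10 groups. In the mature zone it had 8.94 and 9.94 at dusk, 12.38, 12.34 and 12.19 at dawn, 13.04 and 13.10 at 6 h, 12.60, 12.90 and 12.78 at 14 h, and 13.37, 12.99 and 13.15 at 24 h. The 5 mature-zone groups stood above all others and were, from the lowest mean, in the order dusk, dawn, 14 h, 6 h and 24 h, where the last 2 overlapped. Against the dim elongation zone the mature zone was at least 11-fold higher at dusk (means of 9.44 and 3.61), at least 69.0-fold at dawn (12.30 and 3.79) and at least 136-fold at 24 h (13.17 and 3.82), with limma adjusted p of 3.3e-20, 3.4e-27 and 5.8e-28.

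Most of the rise of xet1 in the mature zone lay before the extended night began. Over the normal night its level rose by 2.86 ± 0.21, a factor of 7.27 (limma adjusted p = 1.4e-12), and the dusk arrays differed from each other by 1. In the following 6 h it rose by another 0.77 ± 0.21 (limma adjusted p = 0.0045; 0.089 with array weights). At 24 h it stood 0.87 ± 0.19 above dawn, a factor of 1.82 (limma adjusted p = 0.00023), and at 14 h 3.32 ± 0.21 above dusk, a factor of 9.98 (adjusted p = 9.5e-15). None of these pairs of groups overlapped. The mature-zone changes exceeded those of the elongation zone by 2.71 ± 0.30 at 14 h and by 0.84 ± 0.27 at 24 h (limma interactions, adjusted p = 1.0e-08 and 0.011), as measured, with the elongation zone dim throughout.

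Within the dim range xet1 was also called in the growing zones at 14 h. In the division zone it had 4.40, 5.15 and 4.49 at 14 h, against 3.83, 3.77 and 3.77 at dusk (limma adjusted p = 0.00026), and 3.96, 4.01 and 3.84 at 24 h, near the dawn values of 3.83, 3.87 and 3.96. Elongation-zone arrays had 4.76, 3.92 and 3.97 at 14 h, against 3.60 and 3.62 at dusk (limma adjusted p = 0.020). Without replicate 1 at 14 h the elongation-zone difference was 0.34 (adjusted p = 0.20), and the call was also lost without either dusk array (0.094 and 0.077). Since both groups are dim in each comparison, no fold is given.

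**Figure D3:**
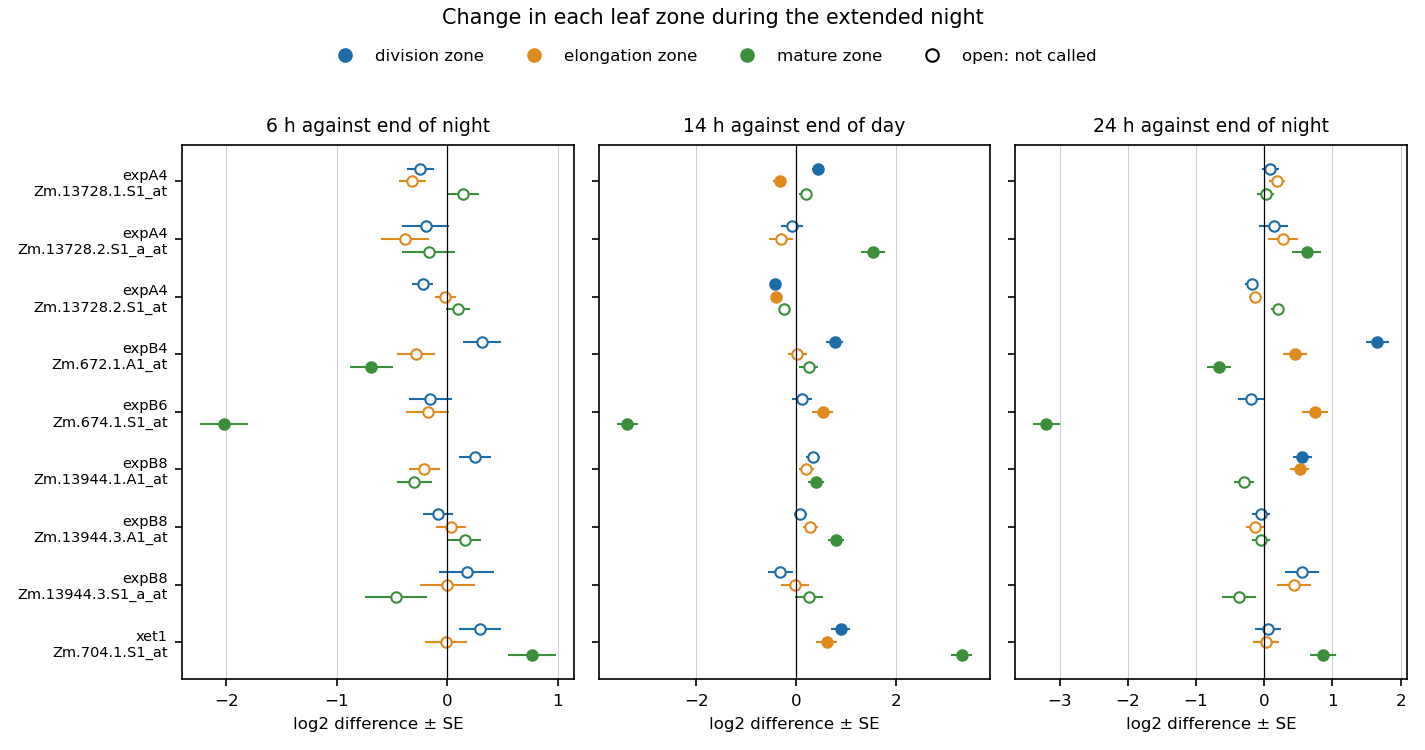
Log2 difference with its SE (limma) of each probe set at 6, 14 and 24 h of extended night, by zone, 14 h being set against dusk and the other times against dawn; filled points have an adjusted p under 0.05. The largest changes were in the mature zone, where the measured differences were -2.02, -3.38 and -3.19 for expB6 and 0.77, 3.32 and 0.87 for xet1, and the largest called change of a growing zone above the dim level was the 1.66 of expB4 in the division zone at 24 h.

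Counted over time, early calls among the wall-loosening genes were mostly in the mature zone, as in the rest of the array. Over the normal night 1 of 9 was higher and 0 lower in the division zone (1.98% and 4.53% of all probe sets), 0 and 0 in the elongation zone (2.72% and 3.58%) and 4 and 1 in the mature zone (20.2% and 20.3%). At 6 h against dawn the counts were 0 and 0 in the division zone (3.14% and 0.911%), 0 and 0 in the elongation zone (4.74% and 4.27%) and 1 and 2 in the mature zone (19.5% and 19.7%). At 14 h against dusk they were 3 and 1 (20.6% and 24%), 2 and 2 (21.7% and 23.8%) and 4 and 1 (34% and 26.8%). At 24 h against dawn they were 2 and 0 (17.9% and 15%), 3 and 0 (21.8% and 20.6%) and 2 and 2 (31.6% and 26.3%). Both expB4 and expB8 (Zm.13944.1.A1_at) were among those higher in both growing zones at 24 h, and no member was called lower there. The median change of the 9 at 24 h was 0.09, 0.28 and -0.05 from the leaf base up, beside -0.06, -0.05 and 0.04 over all probe sets. The change of the elongation zone was called different from that of the division zone for 1 probe set at 14 h and 2 at 24 h (6.56% and 3.61% of all probe sets), and that of the mature zone from that of the elongation zone for 4 and 5 (44.5% and 48.7%). Comparisons at 6 and 24 h share the dawn arrays, and those over the night and at 14 h share the dusk arrays.

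The named genes whose 15 group means were most like those of a member are a description of shared zone and time patterns, chosen among 1443 probe sets of other genes. For Zm.13728.1.S1_at of expA4 these were prp2 (r = 0.99) and the glutathione transferases gst9 (0.98) and gst14 (0.96), and for Zm.13728.2.S1_a_at gl8, a reductase of wax synthesis (0.97), 334B7.2 (0.96) and gst14 (0.96). For Zm.13728.2.S1_at of expA4 they were 2 probe sets of TUBC (0.97 each) and LOC542766 (0.97). expB4 was most like the β-tubulin gene tub4 (0.96), prp2 (0.95) and GR2b (0.95). expB6 was most like hcf106, a thylakoid protein transport gene (0.95), si486077g03 (0.94) and Ij (0.94). Zm.13944.1.A1_at of expB8 was most like the fatty acid elongase gene fae1, lim1 and the tubulin gene tub6 (0.99 each), and Zm.13944.3.S1_a_at like lim1 (0.996) and 2 probe sets of tub6 (0.99 each). Zm.13944.3.A1_at was most like hag, LOC542510 and PER66 (0.98 each), and xet1 like kch4, pht1 and lon1 (0.99 each). The points share zones, arrays and, in part, large steps between zones, so such values are reached easily.

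The other wall genes on the array were 12 cellulose synthases, 8 other expansins and 4 further genes (HRGP, PG14, pme1 and RGP), each read by its brightest probe set; 6 of these 24 were dim on every array. In the mature zone at 24 h 3 of the 24 were higher and 15 lower than at dawn, beside 31.6% higher and 26.3% lower of all probe sets, and their median change was -0.87 beside 0.04. Of the cellulose synthases, which make the cellulose that expansins loosen, 11 of 12 were lower and 1, CesA-5, was higher (0.78 ± 0.19, limma adjusted p = 0.00076). CesA-7 averaged 7.14 ± 0.22 at 24 h and 10.96 ± 0.30 at dawn (SD, n = 3 each), 14.1-fold lower (limma adjusted p = 2.1e-20). CesA-2 fell at least 4.59-fold, CesA-1 at least 3.44-fold and cesa10, a gene of secondary wall synthesis, at least 2.02-fold, all 3 being dim at 24 h (limma adjusted p = 1.4e-13, 6.5e-12 and 5.2e-13). RGP, a reversibly glycosylated polypeptide, was higher by 1.08 ± 0.19 (limma adjusted p = 1.1e-05).

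Among the 8 other expansins 1 was higher and 3 lower in the mature zone at 24 h (31.6% and 26.3% of all probe sets). The α-expansin gene expa1 averaged 6.54 ± 0.41 at 24 h and 10.20 ± 0.57 at dawn, 12.7-fold lower (limma adjusted p = 2.0e-12). EXPA5 fell by 1.61 (limma difference -1.61 ± 0.21, adjusted p = 6.9e-08) and expB7 by 0.47 (adjusted p = 0.00075), while expB3 was higher by 0.51 ± 0.21 (adjusted p = 0.033). expa1, like expB6, was a mature-zone gene at dusk, with 11.34 ± 0.03 in the mature zone and 7.15 ± 0.22 in the elongation zone (SD, n = 2 each; limma difference 4.19 ± 0.37, adjusted p = 8.3e-12), and had a lower mean in the mature zone at each later time tested: it was 3.84-fold lower at 6 h than at dawn and 19.0-fold lower at 14 h than at dusk (adjusted p = 1.9e-05 and 1.0e-12).

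Fewer of the other wall genes were called in the growing zones than in the mature zone. At 24 h 2 were higher and 1 lower in the division zone (17.9% and 15% of all probe sets), and 4 higher and 4 lower in the elongation zone (21.8% and 20.6%). expa1 fell by 1.33 and 1.27 in these zones (limma differences -1.33 ± 0.30 and -1.27 ± 0.30, adjusted p = 0.00076 and 0.00080), where expB4 rose by 1.66 and 0.45. CesA-5 rose in both, by 0.78 ± 0.19 and 0.77 ± 0.19 (limma adjusted p = 0.0019 and 0.0015). At 14 h against dusk 1 of 24 was higher and 6 lower in the division zone (20.6% and 24% of all probe sets). The 1 that was higher was EXPA5, with 9.31 ± 0.37 at 14 h and 7.04 ± 0.04 at dusk, a factor of 4.81 (limma adjusted p = 1.9e-10), while expa2 and expB3 were 2.65-fold and 2.26-fold lower (adjusted p = 1.3e-07 and 1.6e-05). EXPA5 was not called in the division zone at 24 h (limma difference -0.44 ± 0.21, adjusted p = 0.11).

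**Figure D4:**
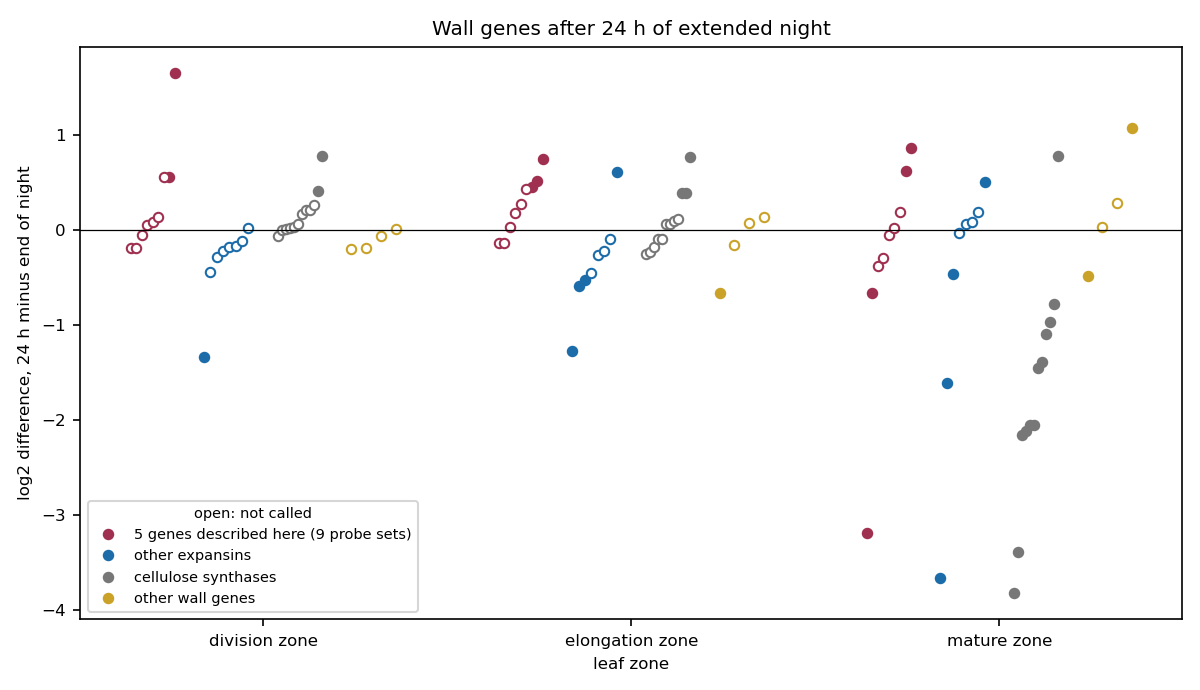
Log2 difference at 24 h of extended night against dawn for the 9 probe sets of the 5 wall-loosening genes and for the other expansins, cellulose synthases and other wall genes, sorted within each zone; filled points have an adjusted p under 0.05 (limma), and differences of dim probe sets are shown as measured. In the mature zone 15 of the 24 other wall genes were lower (26.3% of all probe sets), expa1 and CesA-7 by over 3.5, together with expB6 and expB4 among the 9. In the division zone the largest rise was that of expB4.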

How the data were processed

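Leaf RNA of 15 groups (3 zones at 5 times) was hybridised to 45 Affymetrix maize arrays. The authors normalized them with RMA and deposited log2 signals, per the submitters' processing notes. For RMA, a version is not given in the sources used here. No values stand in the columns of 3 arrays, and 0 columns were of no sample. Values were used as deposited. Of 17734 probe sets, 113 controls and 66 reporter probe sets were left out of the tests. Of the others, 1452 (8.27%) have 1 annotated gene, 1 has several and 16102 have none. Synonyms came from RefSeq's gene list for Zm-B73-REFERENCE-NAM-5.0, with no coordinates.

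Group means of all 42 arrays were fitted with lmFit and eBayes (limma 3.58.1, R 4.3.3; 27 residual and 4.01 prior degrees of freedom). The 22 comparisons were adjusted by Benjamini-Hochberg over 17555 probe sets each, and an adjusted p under 0.05 is a call. The number of arrays sets the precision.

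Members and gene lists were chosen with earlier results of these data known. All probe sets of the 5 genes were named. Likeness took the 3 highest correlations. Other wall genes were named when called by at least 1 (times) or 2 (zones) on the log2 scale, at most 5 per comparison, and others for contrast after their values were seen. Markers (growing tissue cyc3, cdc2, pcna1, his1, tub3, tub4, yab14; mesophyll pep1, pdk1, psan1; bundle sheath me3, rbcS, rca1) checked the zones; the 3 bundle sheath genes summed to 9.29 to 10.02, 10.36 to 11.12 and 14.07 to 15.09 in the division, elongation and mature zones. On simulated data for the mature zone at 24 h, run on 17555 probe sets, the fit found 64%, 86% and 98% of genes changed by 0.5, 1 and 2, with 3 false calls among 174. For the division zone at 24 h these were 66%, 94% and 98% (7 false of 186), and for the mature against the elongation zone at dusk 34%, 82% and 98% (10 false of 162). The simulated noise had 1 spread per probe set for all groups. The measured median SD was 0.19 in the mature and 0.10 in the division zone, so these shares do not describe the mature zone at its own spread.

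Groups share replicate numbers 1 to 3, which the labels do not explain. Over 47 same-numbered pairs in 18 comparisons, deviations from the group means correlated from -0.54 to 0.42 (median -0.01). Every pair was over 0.1 for the elongation against the division zone at dawn (0.21 to 0.33) and at 24 h (0.22 to 0.42), and a paired fit was added there after seeing the data. The other alternatives were a replicate block, a fit of 1 zone or of the compared groups alone, array weights, median centring, quantile normalization, a trended robust prior, a filter on dim probe sets and leaving out each array.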

Additional observations from a re-analysis of the deposited data

Results flagged for a closer look

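In 12 cases a member's change over time differed between neighbouring zones, with a limma adjusted p under 0.05 for the difference of the changes itself. Of all probe sets, 6.56% at 14 h and 3.61% at 24 h were called so for the elongation minus the division zone. For the mature minus the elongation zone the shares were 44.5% and 48.7%, so the number of calls there is no mark of the members. For 14 h against dusk, the change of expA4 (Zm.13728.1.S1_at) in the elongation zone minus that in the division zone was -0.77 ± 0.18 (changes of -0.33 and 0.44). In the mature minus the elongation zone at 14 h, the difference was 0.52 ± 0.19 for expA4 (Zm.13728.1.S1_at; 0.19 and -0.33), 1.83 ± 0.34 for expA4 (Zm.13728.2.S1_a_at; 1.54 and -0.30), -3.91 ± 0.31 for expB6 (-3.38 and 0.53) and 2.71 ± 0.30 for xet1 (3.32 and 0.61). The expB6 and xet1 values include dim groups. The 0.52 had an adjusted p of 0.028, and from 0.050 to 0.097 when 1 of 4 arrays was left out (either elongation-zone array of dusk, or mature-zone replicate 2 of dusk or 3 of 14 h).

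At 24 h against dawn, the elongation minus the division zone gave -1.20 ± 0.24 for expB4 (0.45 and 1.66) and 0.94 ± 0.27 for expB6 (0.75 and -0.19). The expB6 value had an adjusted p of 0.0496; the call was lost in 15 of 19 alternatives, with 0.067 for arrays paired by replicate number, and the difference was 0.58 without replicate 1 of the elongation zone at 24 h (adjusted p = 0.15), with the gene dim in 3 of the 4 groups. The paired fit called 2575 probe sets for this difference, against 634 in the fit without pairs.

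In the mature minus the elongation zone at 24 h, the difference was 0.33 ± 0.14 for expA4 (Zm.13728.2.S1_at), -1.12 ± 0.24 for expB4 (-0.67 and 0.45), -3.94 ± 0.27 for expB6 (-3.19 and 0.75), -0.81 ± 0.20 for expB8 (Zm.13944.1.A1_at; -0.29 and 0.52) and 0.84 ± 0.27 for xet1 (0.87 and 0.03). Those of expB6 and xet1 again include dim groups, and so does that of expB4, which was dim in the mature zone at 24 h. Without replicate 3 of mature tissue at dawn, the expB8 difference was -0.57 and its mature-zone change -0.05. The 0.33 had an adjusted p of 0.046 and was lost in 13 of 18 alternatives, with the probe set dim in the mature zone. Each array was left out in turn, but whether a single array in a group of 2 or 3 is an outlier was not tested as such. The lowest array weight, 0.0983, was that of replicate 3 of mature tissue at dawn.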

How the results depend on the processing

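Of 198 pairs of a member probe set and a comparison, 83 were called; 62 of these calls held in every alternative run, 21 were lost in at least 1 and 0 reversed. Of the 115 not called, 32 were gained in at least 1. The number of calls among members was 6 over the normal night (from 1 to 5 with 1 array left out), 3 at 6 h (2 to 5), 13 at 14 h (9 to 14), 9 at 24 h (7 to 11), 40 between zones (39 to 41) and 12 for differences of changes between zones (9 to 14). It was 3 over the night with each zone fitted alone, and at 6 h 6 with each zone fitted alone and 8 with array weights; the cause was not tested. With the replicate block the counts were 5, 3, 14, 9, 40 and 11; the numbers pair the arrays only for the elongation against the division zone at dawn and at 24 h. With the block 3 calls of members were lost, 1 of them the expB6 difference of changes between these zones at 24 h (adjusted p = 0.058), and 2 gained. Counts over all probe sets moved most for small changes: in the division zone over the night from 1142 to 2571 (zone alone), 4792 (array weights) and as low as 582 (without replicate 2 at dawn), in the elongation zone from 1106 to 2563 (weights) and as low as 333 (without replicate 1 at dusk), and in the mature zone from 7113 to 4030 (zone alone). At 6 h they moved from 712 to 1398 (alone), 5257 (weights) and as low as 388 (without replicate 3 at 6 h) in the division zone, from 1582 to 3337 (weights) and 716 (without replicate 3 at 6 h) in the elongation zone, and from 6869 to 3805 (alone) in the mature zone. At 24 h the division zone moved from 5762 to 8693 (alone) and 9009 (weights). For the elongation minus the division zone the count moved at 14 h from 1151 to 2722 (alone), 3736 (weights) and 625 (without either dusk array of the elongation zone), and at 24 h from 634 to 1494 (alone), 3647 (weights), 2575 (paired) and as low as 332 (without replicate 1 of the division zone at dawn). Median centring moved the share of higher calls from 30.4% to 47.0% (division) and 43.1% to 57.7% (elongation) over the night, and in the division zone from 77.5% to 67.3% at 6 h and from 54.4% to 36.0% at 24 h; it shifted the median of all probe sets between the mature and elongation zones by 0.16, 0.16 and 0.24, and reversed no called member. Signals near the dim level limit expB6 and xet1 in the growing zones and Zm.13728.2.S1_at in the mature zone.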
